A study of Mus musculus with 9 samples.

Results

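The genes described here are 10 genes of myofibroblasts and pericytes of the kidney, chosen by name as contractile, stromal and matricellular genes (Acta2, Tagln, Myl9, Pdgfra, Pdgfrb, Thy1, Fn1, Postn, Vim and Des), out of 55385 genes in the deposited table. Pericytes and fibroblasts lie between the tubules and along the capillaries, where they carry receptors for platelet-derived growth factor (PDGF), and in a scarring kidney they can become myofibroblasts, cells that contract and lay down matrix. Myofibroblasts are usually recognised by smooth muscle actin, and serum response factor with its cofactors drives many of the contractile genes. No gene of this set belongs to these cells alone, since arterial smooth muscle shares the contractile proteins, mesangial cells share Pdgfrb and Des, mouse T cells share Thy1, and injured tubule cells and macrophages can express Vim and Fn1.

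Whole kidneys of male C57BL/6J mice (C57BL/6 in the sample labels) were sequenced after poly(A) selection. There was 1 library for each mouse, with 3 mice in each of 3 groups. The mice were 8 to 10 weeks old when the model was established, and kidneys were taken after the 4 weeks that followed. Control mice (replicates 2, 4 and 5) were untreated. Their sample titles name HN mice, but the disease state in the labels reads control, which was followed here. HN mice (replicates 4, 8 and 12) had hyperuricemic nephropathy, a kidney disease with high blood urate, induced over 4 weeks by feeding every other day. They were fed 2.4 g/kg of potassium oxonate, which blocks the breakdown of urate, together with 0.16 g/kg of adenine, from which urate is made. PEC mice (replicates 1, 2 and 3) received the same induction and, daily by mouth over the same 4 weeks, the plant flavonoid Pectolinarigenin at 25 mg/kg, a dose given in the study's text and not in the sample labels. As PEC was given along with the induction, its group shows the disease developing under the compound, and no group received PEC without the disease.

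Each library held 57714111 to 81069646 counted reads, with a median of 74397038. The fewest reads were in PEC replicate 3 and the most in HN replicate 8. The counts of the 10 genes ran from 113 (Thy1) to 41739 (Fn1) in single libraries, and the chi-square per degree of freedom between replicates of a group was 62.8 to 212, far above the 1 that counting error alone would give. All 10 genes passed the filter on low counts and were among the 21392 genes tested.

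Some libraries, and the PEC libraries as a group, stood apart in measures other than the 10 genes. The ribosomal RNA loci took 0.296%, 1.72% and 0.302% of the counts in PEC replicates 1, 2 and 3, and at most 0.00419% in any Control or HN library. The FPKM listed for the reference gene Gapdh was also far higher in every PEC library than in any other, as given under other observations. The labels give no batch, so that a difference in how the PEC libraries were made cannot be told apart from the treatment. Mitochondrial genes took 12.9% to 16.3% of the counts in Control libraries, 6.01% to 6.34% in HN and 10.3% to 13.7% in PEC libraries. With mitochondrial and ribosomal RNA genes left out, edgeR called the same ones of the 10 genes in each comparison as with them. In PEC replicate 3 the FPKM of 5 adipocyte markers summed to 118, against 11.9 in HN replicate 12, 4.33 in Control replicate 2 and at most 0.39 in the other 6 libraries. Adipoq, the most abundant of them on the mean over all 9 libraries, had 61.2 FPKM in PEC replicate 3. FPKM is the count of fragments divided by gene length and by the total of the library. The 4 adipocyte markers tested were not called in any comparison by edgeR, where the count was 0 also at an unadjusted p, by DESeq2 and by limma. Their median log2 fold changes were 4.39 for PEC and 0.91 for HN against Control, and 3.69 for PEC against HN. Without PEC replicate 3 the medians were -5.01 for PEC against Control and -5.91 for PEC against HN.

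The label for RNA extraction speaks of an adipose type, whereas the tissue label is kidney, and whether fat was attached to the kidney of PEC replicate 3 cannot be told from the files. The tissue label was checked against markers of kidney tubules, whose FPKM summed to 1911, 2097 and 1864 in Control replicates 2, 4 and 5, 1814, 1621 and 1796 in HN replicates 4, 8 and 12, and 1842, 1990 and 1685 in PEC replicates 1, 2 and 3. Umod, made by the thick ascending limb, was the most abundant of these 5 markers, and none was at 0. Skeletal muscle markers were low in every library, with a sum of at most 1.01 FPKM, and Myh4 was at 0 in all 9 libraries. No sample label names a cell type, and as other cells share the 10 genes, their detection in every library does not check one.

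Promoter sequence was looked up because serum response factor acts on smooth muscle genes through a short element named the CArG box. RefSeq sequence on GRCm38.p6 covers the 250 bases before a start for 6 of the 10 genes, namely Acta2, Myl9, Pdgfra, Postn, Vim and Des, and the others are Tagln, Thy1, Fn1 and Pdgfrb. The CArG box in its strict form, with only A or T in its core, was read on both strands and found in 482 of 32851 windows (1.47%). Among these genes this form was in the window of Myl9, 161 to 152 bases before the start. A looser form with at most 1 G or C in its core, searched after the data had been seen, was in 8.59% of all windows and in those of Myl9 and Acta2. The stretches shown run 5′ to 3′ with these elements in capitals, for Myl9 on the plus strand (chr2:156775214-156775419) and for Acta2 on the minus strand (chr19:34255438-34255467 and chr19:34255388-34255417).
Myl9: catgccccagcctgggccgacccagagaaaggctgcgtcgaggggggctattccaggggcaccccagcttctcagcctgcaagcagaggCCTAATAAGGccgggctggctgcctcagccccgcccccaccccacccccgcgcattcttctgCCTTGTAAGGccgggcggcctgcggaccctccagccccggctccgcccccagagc
Acta2: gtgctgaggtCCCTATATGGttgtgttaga
Acta2: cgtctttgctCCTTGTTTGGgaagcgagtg
The Myl9 stretch ends where its first exon in GENCODE begins, and its looser element lies 99 to 90 bases before the RefSeq start. In Acta2 the elements lie 84 to 75 and 34 to 25 bases before the RefSeq start, inside the first exon that GENCODE annotates, so that only the bases around them are shown.

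Like the windows of Vim and Des, those of Postn and Pdgfra had no CArG box of either form, whereas that of Acta2 lacked only the strict form. The TATA box core TATAAA was in 12.4% of all windows and in a window each of Postn and Vim. The window of Vim lies wholly inside an exon annotated by GENCODE. In the Postn window shown, the core lies 26 to 21 bases before the start, while another Postn window (chr3:54359017-54359266) does not hold it. The E-box CANNTG was in 66.2% of all windows and in those of Acta2, Des and Pdgfra. Postn (chr3:54360857-54361106, plus strand) is shown with its TATA box core and Pdgfra (chr5:75152001-75152250, plus strand) with its E-box in capitals, 182 to 177 bases before the start.
Postn: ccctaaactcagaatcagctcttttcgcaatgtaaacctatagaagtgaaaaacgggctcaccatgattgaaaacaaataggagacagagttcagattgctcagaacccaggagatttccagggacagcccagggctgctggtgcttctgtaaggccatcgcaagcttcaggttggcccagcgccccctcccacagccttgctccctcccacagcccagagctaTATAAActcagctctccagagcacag
Pdgfra: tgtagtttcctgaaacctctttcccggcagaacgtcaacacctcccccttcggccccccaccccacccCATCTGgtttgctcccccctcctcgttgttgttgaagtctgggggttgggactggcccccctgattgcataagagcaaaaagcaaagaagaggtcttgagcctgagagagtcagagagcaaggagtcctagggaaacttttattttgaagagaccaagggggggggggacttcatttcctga
The Smad-binding element GTCTAGAC was in 0.167% of all windows and its shorter form GTCTAG in 7.11%, and these letters are in no window of the 6 genes. A match is a description of the letters and shows no binding.

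The comparison of HN with Control mice asks how these genes stand in the diseased kidney. A gene was called where its adjusted p was at most 0.05 and its fold change at least 1.5 (0.585 on the log2 scale) in edgeR's quasi-likelihood test with Benjamini-Hochberg adjustment, and every fold change and adjusted p given here comes from this test unless another tool is named. All 10 genes were called higher in HN mice, where 17.5% of all tested genes were called higher and 14.6% lower. The median log2 fold change of the 10 genes was 1.32, against -0.00 for all genes tested. In bulk RNA, more cells of a type and more RNA in each cell, or fewer cells and less RNA per cell, cannot be told apart. FPKM was scaled by each library's total alone, whereas edgeR's TMM factors were 0.778 to 0.832 in Control, 1.15 to 1.22 in HN and 1.02 to 1.05 in PEC libraries, so that ratios of FPKM between HN and Control mice exceed the fold changes.

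**Figure D1:**
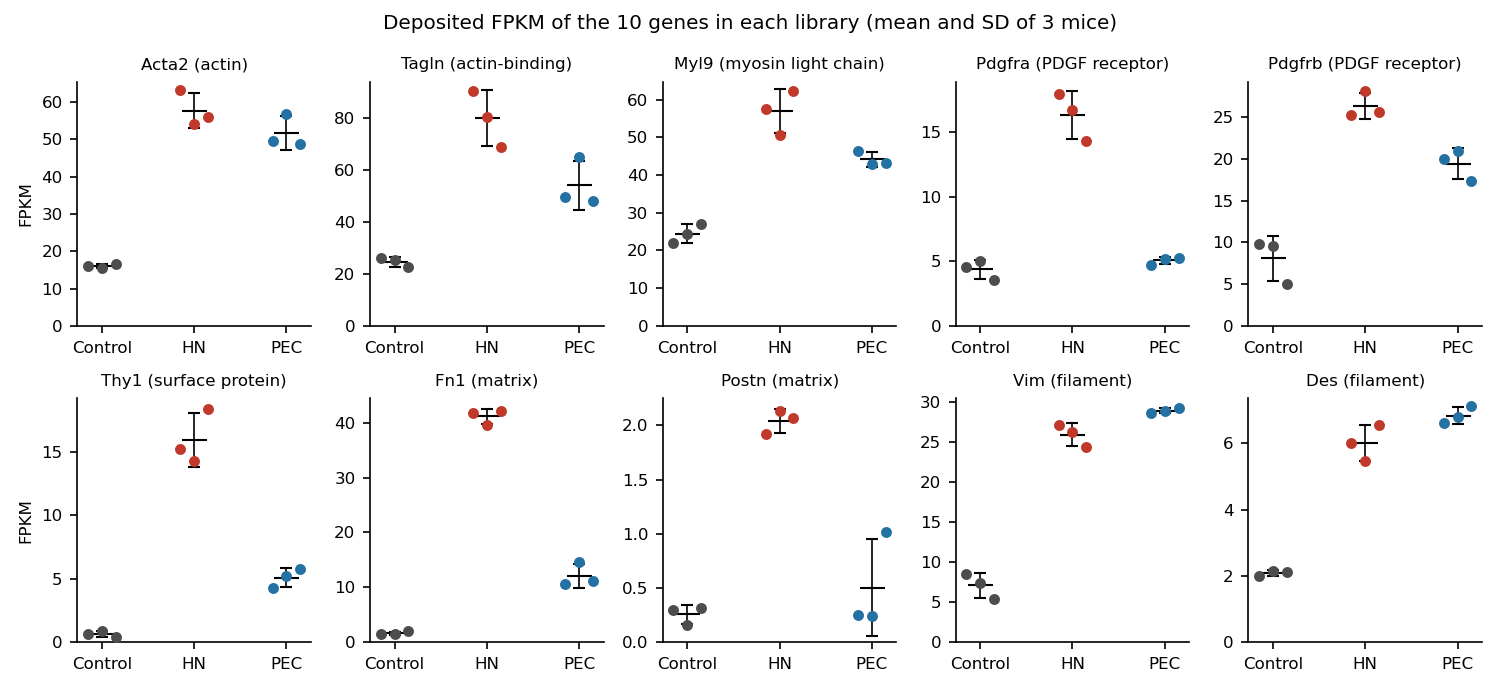
FPKM of the 10 genes in each library (points), with the mean and SD of 3 mice in Control, HN and PEC. The HN libraries lie above the Control libraries for all 10 genes, as for 52.2% of all genes tested, and the PEC libraries overlap the Control libraries for Pdgfra (4.75 to 5.28 FPKM, against 3.56 to 5.01) but not for Acta2 (48.7 to 56.9, against 15.6 to 16.6).

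Among the contractile genes, Acta2 (ENSMUSG00000035783, chromosome 19 of GRCm38 from 34241090 to 34255590, minus strand) encodes smooth muscle actin and had 15.9, 15.6 and 16.6 FPKM in Control replicates 2, 4 and 5, and 63.1, 54.1 and 55.9 FPKM in HN replicates 4, 8 and 12. The Control libraries lay within about 1 FPKM of each other, and every HN library was far above them. Its log2 fold change was 1.31 (SE, the standard error, 0.10, adjusted p = 1.19e-05). For edgeR, each SE given here is the absolute log2 fold change divided by the square root of the test's F statistic. Acta2 resembles the other muscle actin genes Actg2 and Acta1 in sequence, and as the counting program is not given in the sources used here, reads could be split among them. Actg2 had at most 3.21 and Acta1 at most 0.62 FPKM in any library.

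Tagln (ENSMUSG00000032085, chromosome 9 from 45929619 to 45936058, minus strand), which encodes the actin-binding protein transgelin, had 26.2, 25.4 and 22.6 FPKM in Control and 90.2, 80.3 and 68.6 FPKM in HN mice, in the same order of replicates. HN replicate 12 was the lowest of its group and still far above each Control library. Tagln rose by a log2 fold change of 1.16 (SE 0.15, adjusted p = 0.000189). Myl9 (ENSMUSG00000067818, chromosome 2 from 156775420 to 156781658, plus strand), the regulatory light chain of smooth muscle myosin, had 22.0, 24.3 and 27.0 FPKM in Control and 57.6, 50.7 and 62.4 FPKM in HN mice. The groups did not overlap, but the log2 fold change of 0.68 (SE 0.11, adjusted p = 0.00106) was the smallest among the 10 genes and close to the limit for a call. Myl9 lost its call after removal of GC content (0.41) and at a fold change of at least 2.

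Among the receptors, Pdgfra (ENSMUSG00000029231, chromosome 5 from 75152292 to 75198215, plus strand) encodes the PDGF receptor alpha, found on interstitial fibroblasts, and had 4.56, 5.01 and 3.56 FPKM in Control and 17.9, 16.7 and 14.3 FPKM in HN mice. Every HN library was well above every Control library, and the log2 fold change was 1.37 (SE 0.13, adjusted p = 3.61e-05). Pdgfrb (ENSMUSG00000024620, chromosome 18 from 61045150 to 61085061, plus strand) encodes the PDGF receptor beta, the classical receptor of pericytes, and had 9.74, 9.52 and 4.96 FPKM in Control and 25.2, 28.1 and 25.6 FPKM in HN mice. Control replicate 5 was low for Pdgfrb, as it was for Vim and Thy1, and the SD of its group was 2.70 FPKM, against 1.57 in HN mice. Pdgfrb rose by a log2 fold change of 1.18 (SE 0.21, adjusted p = 0.00176), and by 0.94 without Control replicate 5.

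Thy1 (ENSMUSG00000032011, chromosome 9 from 44043384 to 44048579, plus strand) encodes a small surface protein of fibroblasts and had 0.64, 0.89 and 0.43 FPKM in Control and 15.2, 14.3 and 18.4 FPKM in HN mice. It went from a level near the bottom of the 10 genes to one beside that of Pdgfra. Its log2 fold change was 4.06 (SE 0.24, adjusted p = 3.00e-06). Mouse T cells also carry Thy1, and 5 of 5 T cell markers were called higher in HN mice as well. The sum of their FPKM was 7.06, 12.2 and 8.64 in HN replicates 4, 8 and 12, and their part in the value of Thy1 was not tested.

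The matrix genes changed most, together with Thy1. Fn1 (ENSMUSG00000026193, chromosome 1 from 71585520 to 71653175, minus strand) encodes fibronectin, on which cells anchor and along which collagen is laid down, and had 1.47, 1.62 and 2.01 FPKM in Control and 41.7, 39.6 and 42.0 FPKM in HN mice. The HN libraries were nearly equal to each other, with an SD of 1.30 FPKM, and the log2 fold change was 4.05 (SE 0.17, adjusted p = 8.23e-07), a 16.6-fold rise. Postn (ENSMUSG00000027750, chromosome 3 from 54361109 to 54391037, plus strand) encodes periostin, a matricellular protein that is scarce in healthy kidney, and had 0.30, 0.16 and 0.32 FPKM in Control and 1.92, 2.13 and 2.07 FPKM in HN mice. All HN libraries were several times above all Control libraries, at counts of 1379 to 1676 against 115 to 242. The log2 fold change was 2.42, with the widest standard error of the 10 genes (0.57, adjusted p = 0.0090). Without PEC replicate 3, which enters this comparison only through the fit shared by all 9 libraries, it was 2.41 (SE 0.26, adjusted p = 0.000112).

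The intermediate filament genes Vim and Des build the inner scaffold of mesenchymal and of muscle cells. Vim (ENSMUSG00000026728, chromosome 2 from 13573927 to 13582826, plus strand), which encodes vimentin, had 8.52, 7.44 and 5.46 FPKM in Control and 27.1, 26.3 and 24.4 FPKM in HN mice. Des (ENSMUSG00000026208, chromosome 1 from 75360329 to 75368579, plus strand), which encodes desmin, had 1.99, 2.16 and 2.12 FPKM in Control and 5.99, 5.46 and 6.54 FPKM in HN mice. Neither gene overlapped between the groups. The log2 fold changes were 1.33 for Vim (SE 0.14, adjusted p = 4.91e-05) and 0.98 for Des (SE 0.10, adjusted p = 5.08e-05).

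The order of the levels changed with the disease. In Control mice the mean FPKM ran from Tagln (24.7 ± 1.89, SD, n = 3) and Myl9 (24.4 ± 2.52), which overlapped, through Acta2, Pdgfrb, Vim, Pdgfra, Des and Fn1 to Thy1 (0.653 ± 0.230) and Postn (0.260 ± 0.0872). Pdgfrb overlapped Vim, and Des overlapped Fn1, in that order. In HN mice Tagln (79.7 ± 10.8) led, Acta2 (57.7 ± 4.76) and Myl9 (56.9 ± 5.86) overlapped, and Fn1 (41.1 ± 1.30) had moved from rank 8 to rank 4, followed by Pdgfrb, Vim, Pdgfra, Thy1, Des and Postn. Of these neighbours, Pdgfrb overlapped Vim and Pdgfra overlapped Thy1. In PEC mice Tagln (54.0 ± 9.38) and Acta2 (51.7 ± 4.51) overlapped, Vim (28.9 ± 0.337) stood at rank 4 and Fn1 (12.1 ± 2.13) at rank 6, and Pdgfra (5.08 ± 0.288), which overlapped Thy1 (5.09 ± 0.766), stood at rank 9.

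The comparison of PEC with HN mice asks which of these genes differ when the compound is given during the disease. It shares the HN mice with the comparison above, and a deviation of the HN mean would enter both with opposite sign. By edgeR, 4 of the 10 genes were called lower with PEC (Pdgfra, Thy1, Fn1 and Postn), where 15.1% of all tested genes were called lower. None was called higher, a count of 0 that was also 0 at an unadjusted p, by DESeq2 and by limma, where 13.2% of all tested genes were called higher by edgeR. With the adjusted p alone and no limit on the fold change, 1 gene, Des, was higher. The median log2 fold change of the 10 genes was -0.28, against -0.02 for all genes tested. The 4 genes that fell are a receptor, a surface protein and both matrix genes, whereas the 3 contractile genes, the 2 filament genes and the other receptor, Pdgfrb, were not called.

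**Figure D2:**
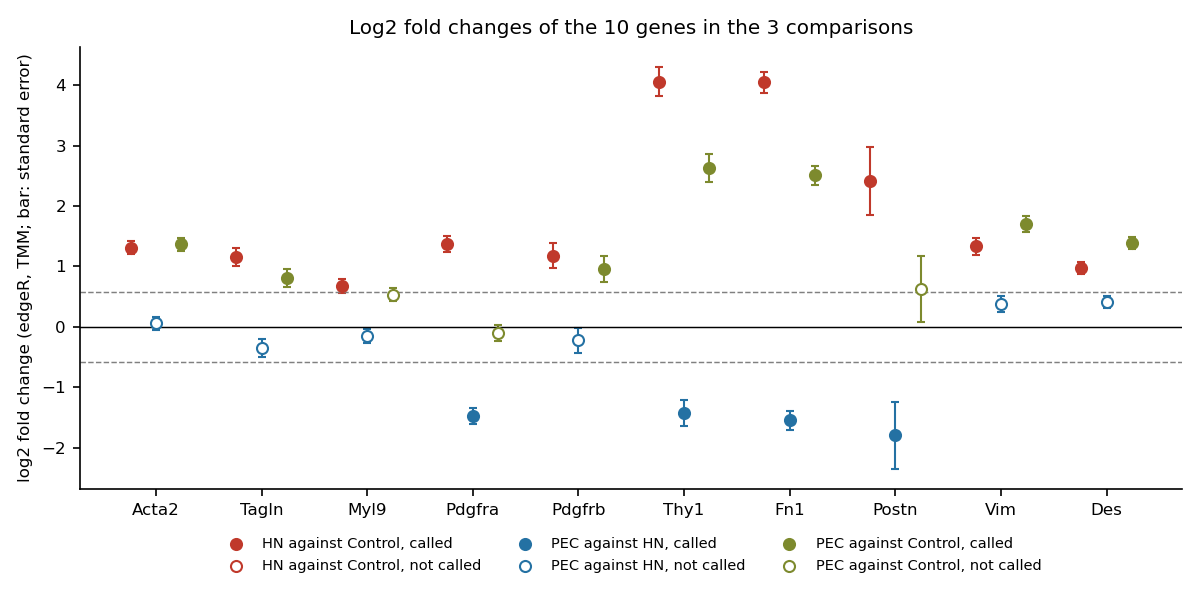
Log2 fold changes of the 10 genes by edgeR with their standard errors in the 3 comparisons, with filled points for called genes and dashed lines at a 1.5-fold change. With PEC against HN, Pdgfra, Thy1, Fn1 and Postn lie between -1.43 and -1.79, and the other 6 genes between -0.35 and 0.41.

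Acta2 had 49.5, 56.9 and 48.7 FPKM in PEC replicates 1, 2 and 3, against 54.1 to 63.1 FPKM in HN mice. The groups overlapped through PEC replicate 2, and the log2 fold change was 0.06 (SE 0.10, adjusted p = 0.705). Its sign was not stable, since it was -0.14 with library totals alone as the scaling, -0.16 by limma on FPKM and -0.023 without PEC replicate 2. Tagln had 49.4, 64.8 and 47.8 FPKM in PEC mice, all below the HN range on FPKM but overlapping it after TMM scaling, and was not called (log2 fold change -0.35, adjusted p = 0.0852). Myl9 had 46.5, 42.9 and 43.2 FPKM in PEC mice, with the same overlap after TMM scaling, and was not called either (-0.15, adjusted p = 0.340). Tagln was at -0.50 without PEC replicate 2 (adjusted p = 0.0194), -0.47 without HN replicate 12 (0.0394) and -0.23 without HN replicate 4. Myl9 ranged from -0.24 without HN replicate 8 to -0.10 without HN replicate 12. Neither gene was called with any library left out. An adjusted p above the threshold does not show that these genes were equal in HN and PEC mice.

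Pdgfra had 4.75, 5.21 and 5.28 FPKM in PEC mice, against 14.3 to 17.9 FPKM in HN mice. All 3 PEC libraries were near 5 FPKM and far below every HN library, and the log2 fold change was -1.47 (SE 0.13, adjusted p = 6.14e-05), 0.361 of the HN level. Pdgfrb, the other PDGF receptor, had 20, 20.9 and 17.4 FPKM in PEC mice, against 25.2 to 28.1 FPKM in HN mice. Its groups did not overlap on either scale, but the log2 fold change was -0.22 (SE 0.21, adjusted p = 0.441), and Pdgfrb was not called. Without Control replicate 5, which enters this comparison only through the shared fit, it was -0.23 (SE 0.087, adjusted p = 0.0731), and without PEC replicate 3 it was -0.12. Thy1 had 4.28, 5.20 and 5.80 FPKM in PEC mice, lower than every HN library and higher than every Control library, and fell by 1.43 on the log2 scale (SE 0.22, adjusted p = 0.000857).

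Fn1 had 10.6, 14.6 and 11.2 FPKM in PEC mice, against 39.6 to 42.0 FPKM in HN mice. PEC replicate 2 was the highest of its group and well under the lowest HN library. The log2 fold change was -1.55 (SE 0.16, adjusted p = 0.000101), 0.343 of the HN level.

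Postn had 0.25, 0.24 and 1.02 FPKM in PEC mice, against 1.92 to 2.13 FPKM in HN mice. PEC replicates 1 and 2 were within the Control range and PEC replicate 3 was well above it, so that the SD of 0.447 FPKM in PEC mice was nearly as large as their mean of 0.503 FPKM. The log2 fold change was -1.79 (SE 0.56, adjusted p = 0.0330). Without PEC replicate 3 it was -2.78 (SE 0.31, adjusted p = 0.000345). The call was lost without Control replicate 2 (-1.80, adjusted p = 0.0526), without HN replicate 4 (-1.82, 0.0690), HN replicate 8 (-1.78, 0.0742) or HN replicate 12 (-1.80, 0.0697), and without PEC replicate 1 (-1.48, 0.0884) or PEC replicate 2 (-1.47, 0.0826). PEC replicate 3 is also the library with the high adipocyte markers, and their part in the value of Postn was not tested.

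Vim had 28.6, 28.9 and 29.3 FPKM in PEC mice, against 24.4 to 27.1 FPKM in HN mice. Des had 6.60, 6.78 and 7.10 FPKM in PEC mice, against 5.46 to 6.54 FPKM in HN mice. For both genes every PEC library lay above every HN library, by a small margin. The log2 fold change of Vim was 0.37 (SE 0.13, adjusted p = 0.0505) and that of Des 0.41 (SE 0.10, adjusted p = 0.0101), both under the 1.5-fold limit. The adjusted p of Vim was 0.0109 without Control replicate 5 and 0.0281 without Control replicate 2. With any other library left out it was above 0.05.

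The comparison of PEC with Control mice asks how far the kidneys of treated mice stand from untreated ones, and it shares its groups with the 2 comparisons above. Of the 10 genes, 7 were called higher in PEC than in Control mice, where 18.7% of all tested genes were called higher and 17.3% lower, and the other 3 (Myl9, Pdgfra and Postn) were not called. The median log2 fold change was 1.16, against 0.04 for all genes tested. Of the contractile genes, Acta2 was higher by 1.37 (SE 0.10, adjusted p = 1.36e-05) and Tagln by 0.81 (SE 0.15, adjusted p = 0.00152). Tagln lost its call after removal of GC content (0.49) or gene length (0.50), and Pdgfrb after removal of GC content (0.52), which left 5 of the 10 genes called with GC content removed and 6 with gene length removed. At a fold change of at least 2 neither was called. The log2 fold change of Myl9 was 0.54 (SE 0.11, adjusted p = 0.00401), just under the limit, and 0.64 without Control replicate 5, at which it was called. It was called also with library totals alone (0.90), with upper-quartile factors (0.69), at a mean FPKM of at least 1 (0.63), by limma on log2(FPKM + 0.1) (0.86) and on log2(FPKM + 1) (0.83), and with the adjusted p alone. A gene called in one comparison and not in another is not thereby shown to differ between the comparisons, and such differences were not tested.

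Pdgfra in PEC mice overlapped the Control range, with a log2 fold change of -0.10 (SE 0.13, adjusted p = 0.573) whose sign depended on the scaling, as it was 0.26 with library totals alone. With each mouse left out, this fold change ranged from -0.21 without Control replicate 5 to -0.011 without Control replicate 4. Pdgfrb stayed 0.96 above Control (SE 0.21, adjusted p = 0.0050) and Thy1 2.63 (SE 0.23, adjusted p = 2.62e-05). Fn1, although lower than in HN mice, was 2.51 above Control (SE 0.16, adjusted p = 6.42e-06), a 5.68-fold difference. Postn was not called (0.62, SE 0.55, adjusted p = 0.388), overlapped the Control range, and was at -0.37 without PEC replicate 3 (adjusted p = 0.342). The filament genes Vim (1.71, SE 0.14, adjusted p = 1.69e-05) and Des (1.39, SE 0.10, adjusted p = 1.08e-05) were higher than in Control mice, in all 3 PEC libraries. On FPKM every PEC library was above every Control library for 8 of the 10 genes, as for 40.9% of all genes tested, and for 2 of them, Vim and Des, every PEC library was above every HN library, as for 18% of all.

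A ratio of FPKM within a library does not depend on how libraries are scaled, apart from a small number added to avoid division by 0, which matters for genes near it, such as Postn and Thy1. The log2 ratio of each other gene to Pdgfrb, and of the contractile genes to Myh11, the smooth muscle myosin heavy chain, was computed from FPKM + 0.1 and compared with an exact permutation test, two-sided. With 3 against 3 mice the smallest p it can give is 0.1, which became 0.2 after Benjamini-Hochberg adjustment over the 36 tests (12 ratios in 3 comparisons), so that no ratio could pass 0.05. The FPKM of Pdgfra was 0.468, 0.526 and 0.718 of that of Pdgfrb in Control replicates 2, 4 and 5, 0.712, 0.595 and 0.558 in HN replicates 4, 8 and 12, and 0.238, 0.249 and 0.304 in PEC replicates 1, 2 and 3. The ratio was lower in every PEC library than in any other library. Control and HN mice overlapped through Control replicate 5 alone, as Control replicates 2 and 4 lay below every HN library. Between PEC and HN mice the log2 ratio differed by -1.22 (exact permutation test, p = 0.1), and between HN and Control mice by 0.13 (exact permutation test, p = 0.6).

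Between PEC and HN mice the groups did not overlap for 6 of the 9 ratios to Pdgfrb, and among all tested genes for 53.3% of such ratios. Besides Pdgfra these were Postn (-1.63), Fn1 (-1.33) and Thy1 (-1.19), all lower with PEC, and Vim (0.60) and Des (0.63), both higher, each with the smallest p of 0.1 (exact permutation test). The ratios of Acta2 (0.28, p = 0.2), Tagln (-0.13, p = 0.5) and Myl9 (0.08, p = 0.6) to Pdgfrb overlapped between PEC and HN mice by the same exact test. Between HN and Control mice the ratios to Pdgfrb of Fn1 (2.78) and Thy1 (2.70) were the 2 of 9 that did not overlap (exact permutation test, p = 0.1 each), against 80.7% among all tested genes. Control replicate 5, where Pdgfrb was low, had the highest log2 ratio among the Control mice for all 9 genes. For Thy1 this held only with the 0.1 added, as its FPKM ratio was 0.0867 there and 0.0935 in Control replicate 4. Without Control replicate 5, 7 of the 9 ratios did not overlap between HN and Control mice (Acta2, Tagln, Pdgfra, Postn and Vim in addition), against 85.8% among all tested genes, and leaving out a library makes overlap rarer by construction. In PEC against Control 4 of 9 did not overlap, namely Pdgfra (-1.09), Vim (0.71), Fn1 (1.45) and Thy1 (1.51), against 67.9% among all tested genes, and 6 of 9 without Control replicate 5, against 74% among all. With 1 in place of 0.1 added to FPKM, the difference in the log2 ratio of Thy1 to Pdgfrb went from 2.70 to 1.72 for HN and from 1.51 to 0.67 for PEC against Control. That of Postn changed sign from 0.85 (exact permutation test, p = 0.3) to -0.36 for HN against Control and went from -1.63 to -0.63 for PEC against HN.

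**Figure D3:**
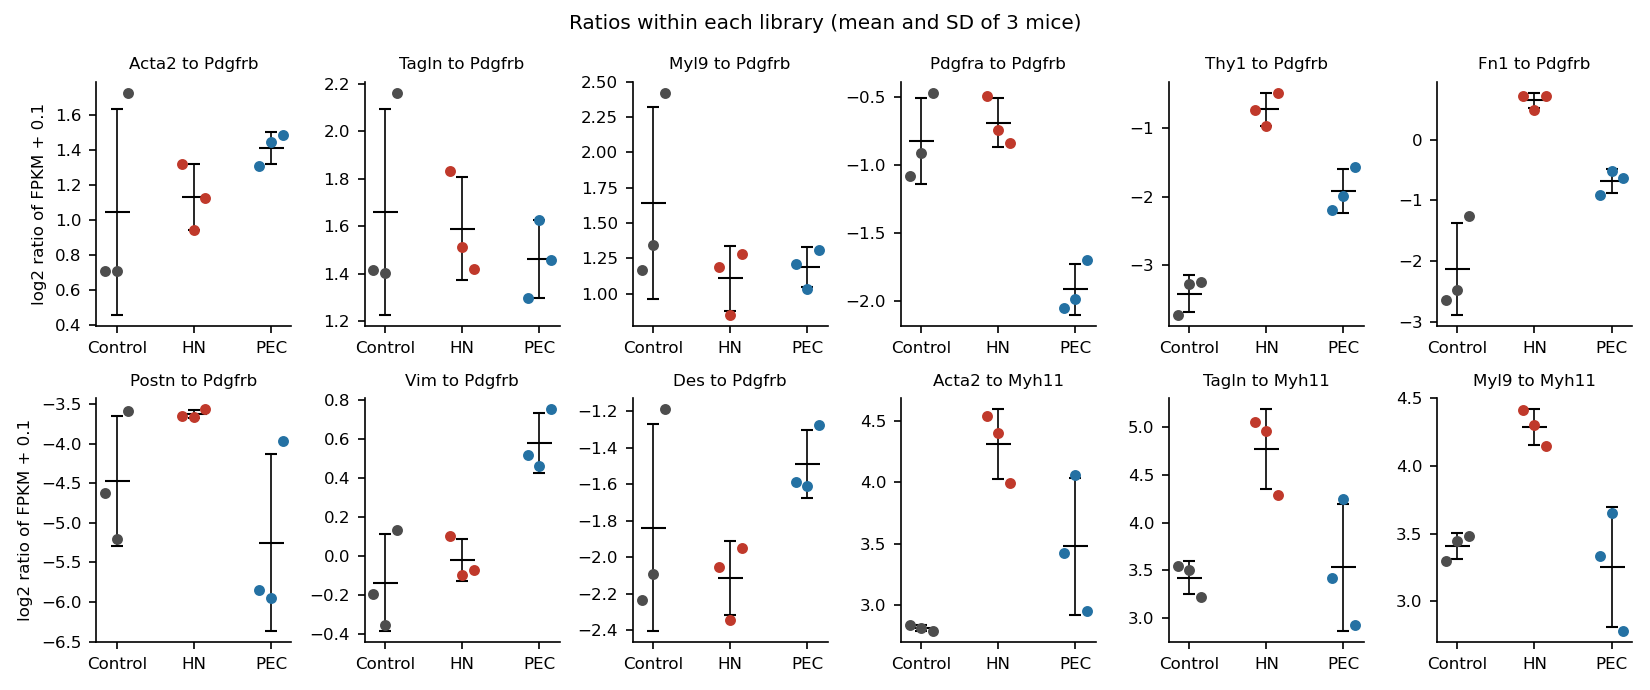
Log2 ratios of FPKM + 0.1 within each library (points), with the mean and SD of 3 mice in each group, for 9 genes over Pdgfrb and 3 contractile genes over Myh11. Over Pdgfrb, the 3 PEC libraries lie below all HN libraries for Pdgfra, Thy1, Fn1 and Postn and above them for Vim and Des.

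Myh11 had 2.15, 2.14 and 2.33 FPKM in the Control libraries, 2.61, 2.47 and 3.42 FPKM in the HN libraries and 4.52, 3.31 and 6.22 FPKM in the PEC libraries. PEC replicate 3, with the high adipocyte markers, had the most, and their part in this was not tested. The ratio of Acta2 to Myh11 was 7.41, 7.29 and 7.14 in the Control libraries, 24.2, 21.9 and 16.3 in the HN libraries and 10.96, 17.2 and 7.82 in the PEC libraries. The contractile genes thus stood higher over Myh11 in every HN library than in any Control library, by log2 differences of 1.5 for Acta2, 1.35 for Tagln and 0.88 for Myl9 (exact permutation test, p = 0.1 each). Between PEC and HN mice the ratio to Myh11 differed by -1.24 for Tagln and -1.03 for Myl9 (exact permutation test, p = 0.1 each) without overlap, and by -0.83 for Acta2 (exact permutation test, p = 0.2) with overlap through PEC replicate 2. Between PEC and Control mice, Acta2 was higher over Myh11 by 0.67 (exact permutation test, p = 0.1), whereas Tagln (0.11, p = 0.9) and Myl9 (-0.15, p = 0.8) overlapped by the same exact test. Ratios to Myh11 of all tested genes did not overlap for 45.5% between HN and Control, 59.1% between PEC and HN and 57.1% between PEC and Control mice. Without PEC replicate 3 the differences over Myh11 were -0.57 (Acta2), -0.94 (Tagln) and -0.79 (Myl9) against HN mice, and 0.94, 0.41 and 0.088 against Control mice, in the same order of genes.

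Other genes of the same pathways were taken from lists, each described by its counts and its median. A list is called led by the gene with the highest mean FPKM over all 9 libraries, which need not lead in each group. Of 10 smooth muscle contractile genes outside the set, 3 were called higher in HN mice than in Control mice (Tpm1 1.58, Cald1 1.51 and Tpm2 0.73 on the log2 scale), against 5 of 9 by limma on log2(FPKM + 1), with a list median of 0.32. With PEC, 1 was higher than in HN mice (Myh11, 0.94) and 1 lower (Cald1, an actin-binding regulator, -1.38), with a median of 0.19. By limma on log2(FPKM + 1), PEC mice had 0 of 9 higher and 2 lower against HN mice, and Myh11 (0.54) was not called. Between PEC and Control mice 3 were higher (Tpm2 1.31, Tpm1 1.12 and Myh11 0.77), against 5 by DESeq2 and at an unadjusted p and 4 of 9 by limma, with a median of 0.58. Without PEC replicate 3 the list medians were 0.04 for PEC against HN and 0.33 for PEC against Control. Myh11 was higher than in HN mice also without PEC replicate 3, while its call against Control was lost without PEC replicate 3 (0.53), Control replicate 2 (0.74) or Control replicate 4 (0.72). The list was led by Smtn, with Tpm1 ahead of it in HN mice (39.2 FPKM), Synpo2 was below 1 FPKM in every library, and the list's FPKM summed to 44.8, 48.4 and 46.8 in the Control libraries, 118, 118 and 119 in the HN libraries and 90.2, 87.2 and 94.1 in the PEC libraries.

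Serum response factor (Srf) and its cofactors Myocd, Mrtfa and Mrtfb drive contractile genes. By edgeR 0 of these 4 genes were called between HN and Control mice, against 1 at an unadjusted p, 1 by DESeq2 and 2 of 3 by limma on FPKM, and the list median was 0.72. Srf (-0.88) and Myocd (-2.66) fell between HN and PEC mice, with a list median of -0.83, and between PEC and Control mice Srf fell by 0.83 on the log2 scale, with a list median of -0.35. By limma on FPKM 0 of 3 were called in PEC against Control. Myocd, however, was below 1 FPKM in every library. The list's FPKM, led by Srf, summed to 14.2, 14.1 and 11 in the Control libraries, 23.6, 24.4 and 22.4 in the HN libraries and 11.9, 13.2 and 10.7 in the PEC libraries.

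The ligands of the PDGF receptors were called higher in 3 of 4 cases in HN mice (Pdgfb 1.97, Pdgfa 0.93 and Pdgfd 0.93), with a list median of 0.93. The call of Pdgfd was lost without Control replicate 2 (0.84), Control replicate 4 (0.91), HN replicate 4 (0.88) or HN replicate 8 (0.96). With PEC 3 of 4 were called lower than in HN mice (Pdgfd -1.84, Pdgfb -0.88 and Pdgfc -0.60), against 4 by limma on log2(FPKM + 1), with a median of -0.74. Pdgfc lost its call without HN replicate 4 (-0.58), HN replicate 8 (-0.60), PEC replicate 1 (-0.61) or PEC replicate 3 (-0.56). Pdgfb, the main ligand of the beta receptor, had 6.00, 6.23 and 5.56 FPKM in the Control libraries, 35.5, 32.9 and 32.1 FPKM in the HN libraries and 15.4, 16.1 and 15.6 FPKM in the PEC libraries, between the other groups in every PEC library. Against Control, PEC mice had higher Pdgfb (1.09) and lower Pdgfd (-0.91) and Pdgfc (-0.74), with a median of -0.19, where limma on log2(FPKM + 1) called 1 higher and 0 lower. Those last edgeR calls were lost for Pdgfd without Control replicate 4 (-0.93), Control replicate 5 (-0.78), PEC replicate 1 (-0.71) or PEC replicate 3 (-0.72), and for Pdgfc without Control replicate 5 (-0.51). The FPKM of the 4 ligands summed to 14.5, 15.5 and 15.6 in the Control libraries, 58.03, 53.4 and 52.8 in the HN libraries and 24.7, 26.7 and 24.3 in the PEC libraries.

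Of 7 pericyte and mural markers outside the set, 3 were called higher in HN mice (Notch3 1.06, Mcam 0.94 and Cspg4 0.67), with a median of 0.38. With PEC 2 were lower than in HN mice (Notch3 -1.21 and Angpt1 -0.99), with a median of -0.14, and between PEC and Control mice Mcam (0.80) was higher and Angpt1 (-1.35) lower, with a median of -0.15, where DESeq2 called 2 lower. Notch3, a receptor of mural cells, had 2.49, 2.67 and 1.89 FPKM in the Control libraries, 7.35, 6.45 and 7.38 FPKM in the HN libraries and 2.66, 2.66 and 2.56 FPKM in the PEC libraries. Every PEC library was within the Control range. The list's FPKM, led by Rgs5, summed to 23.9, 26.5 and 23.8 in the Control libraries, 50.1, 46.5 and 50.8 in the HN libraries and 34.5, 32.6 and 36.6 in the PEC libraries.

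All 10 fibroblast markers were called higher in HN mice, with a median of 2.85 and the largest changes for Fap (4.63), Col1a1 (4.26) and Col3a1 (4.20). With PEC 7 of 10 were lower than in HN mice (Lum -1.71, Cdh11 -1.70 and Col3a1 -1.30 the most), with a median of -1.03. Against Control 9 of 10 stayed higher with PEC, with a median of 1.98, led by Col1a1 (3.34), Fap (2.93) and Col3a1 (2.90). Their FPKM, led by Col3a1 (by Tcf21 in Control and Col1a1 in PEC mice), summed to 27.3, 24 and 24.4 in the Control libraries, 291, 316 and 299 in the HN libraries and 128, 135 and 120 in the PEC libraries. Fap and Gli1 were below 1 FPKM in every library.

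**Figure D4:**
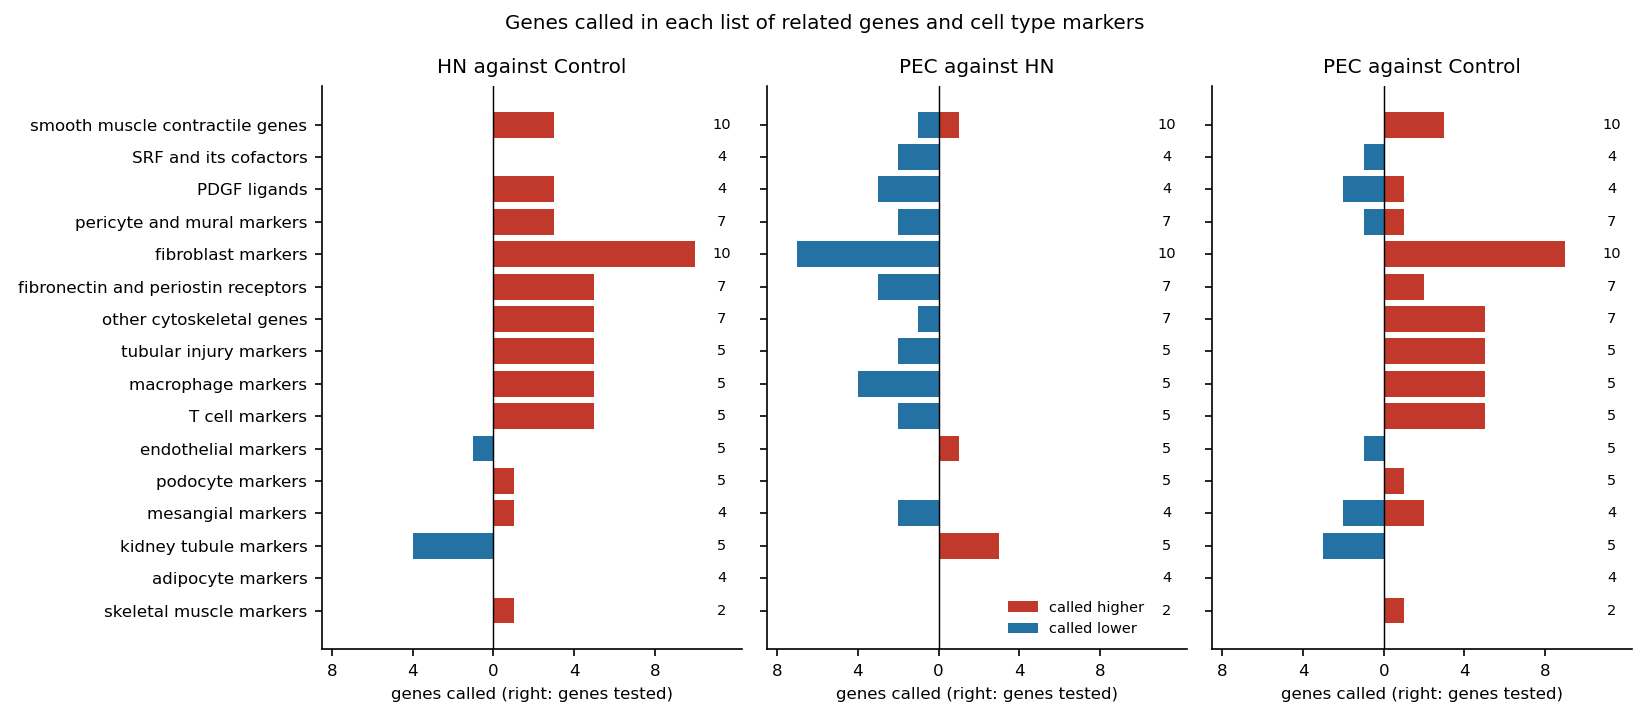
Number of genes called higher (right of 0) and lower (left of 0) by edgeR in each list, with the number tested at the right edge of each panel. In HN against Control all 10 fibroblast markers are called higher, against 3 of 7 pericyte and mural markers, and with PEC against HN 7 and 2 of them are called lower.

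Receptors for fibronectin and periostin, mostly integrins, were called higher in 5 of 7 cases in HN mice (Itga4 2.30, Itga5 1.87 and Itgb3 1.31), with a median of 0.95. With PEC 3 were lower than in HN mice (Itga4 -1.47, Itgb1 -1.03 and Itgb3 -0.75), against 5 by limma on log2(FPKM + 1), with a median of -0.75. The call of Itgb3 was lost without HN replicate 4 (-0.56), PEC replicate 1 (-0.62) or PEC replicate 2 (-0.77). Itga5 (1.31) and Itga4 (0.83) were higher in PEC than in Control mice, with a list median of 0.38, and DESeq2 and limma called 3 higher. Itgav was not called, with 12.02, 1.47 and 0.68 FPKM in PEC replicates 1, 2 and 3 and 11.2 to 16.7 FPKM in HN mice. The list's FPKM, led by Sdc4 (by Itgb1 in HN mice), summed to 200, 210 and 183 in the Control libraries, 427, 396 and 393 in the HN libraries and 267, 279 and 251 in the PEC libraries.

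Of 7 other cytoskeletal genes, 5 were called higher in HN mice (Flna 1.73 and Nes 1.38 among them) and 5 in PEC mice against Control (Actb 1.19, Nes 1.17 and Flna 1.11 the most), with medians of 1.16 and 0.85. Flna (-0.62) was the gene called lower between PEC and HN mice, with a list median of -0.21 and 2 of 6 lower by limma on log2(FPKM + 1), and its call was lost without HN replicate 4 (-0.58) or PEC replicate 3 (-0.56). Their FPKM, led by Actg1, summed to 441, 439 and 266 in the Control libraries, 810, 813 and 795 in the HN libraries and 648, 699 and 729 in the PEC libraries.

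Markers of other cell types that can express these genes follow, and their part in the results was not tested. All 5 tubular injury markers were called higher in HN mice than in Control mice (median 5.29) and in PEC than in Control mice (median 4.01), and 2 of 5 were lower with PEC than in HN mice (Sox9 -1.28 and Vcam1 -0.84, median -0.55), against 3 by limma on log2(FPKM + 1). Their FPKM, led by Havcr1 (by Lcn2 in Control mice), summed to 6.16, 5.57 and 2.89 in the Control libraries, 538, 546 and 528 in the HN libraries and 323, 353 and 370 in the PEC libraries. All 5 macrophage markers were likewise higher in HN mice (median 3.35) and in PEC mice against Control (median 2.43). With PEC 4 of 5 were lower than in HN mice (Adgre1 -2.07, C1qa -1.17 and Cd14 -0.78, median -0.78), and Cd14 lost its call without HN replicate 4 (-0.71), HN replicate 8 (-0.75), PEC replicate 1 (-0.65) or PEC replicate 2 (-0.78). Macrophage FPKM, led by C1qa, summed to 24.7, 29.2 and 24.7 in the Control libraries, 368, 427 and 335 in the HN libraries and 128, 142 and 206 in the PEC libraries.

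The T cell markers had medians of 2.72 in HN and 1.90 in PEC mice against Control, with 5 of 5 called higher in each, and 3 of 5 in PEC mice by limma on log2(FPKM + 1). With PEC 2 of 5 were lower than in HN mice (Cd3d -0.83 and Cd4 -0.66, median -0.83), against 3 by DESeq2 and 4 at an unadjusted p. Cd3d lost its call without HN replicate 8 (-0.67), HN replicate 12 (-0.88), PEC replicate 1 (-0.75) or PEC replicate 3 (-0.80), and Cd4 without any of HN replicates 4 (-0.76), 8 (-0.52) and 12 (-0.72) and PEC replicates 1 (-0.58) and 2 (-0.66). The sum of T cell FPKM, led by Cd4 (by Cd8a in Control mice), was 0.83, 1.12 and 1.05 in Control and 4.27, 5.25 and 5.39 in PEC mice. For the mesangial markers 1 of 4 was called higher in HN mice (Serpine2 3.08, median 0.47), against 3 by limma on log2(FPKM + 1), 2 of 4 lower with PEC than in HN mice (Itga8 -1.45 and Serpine2 -1.23, median -0.78), and 2 higher and 2 lower in PEC mice against Control (median 0.00), where limma on log2(FPKM + 1) called 2 higher and 0 lower. Their FPKM, led by Serpine2 (by Gata3 in Control mice), summed to 7.48, 8.36 and 7.34 in the Control libraries, 37.2, 35.9 and 37.6 in the HN libraries and 17.3, 17.8 and 17.2 in the PEC libraries.

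Of 5 endothelial markers, Kdr (-1.0) was lower in HN mice (median -0.30), Emcn (0.59) higher with PEC than in HN mice (median -0.08) and 1 lower in PEC mice against Control (median -0.12). The last 2 medians were -0.21 and -0.24 without PEC replicate 3. By limma on log2(FPKM + 1), 1 was higher and 0 lower in HN mice, and 0 were higher with PEC than in HN mice. The call of Emcn was lost without Control replicates 2, 4 or 5 (0.58 each), HN replicates 8 (0.55) or 12 (0.54), or PEC replicate 3 (0.39). Their FPKM, led by Emcn (by Pecam1 in Control and Cdh5 in HN mice), summed to 39.9, 43.3 and 43.8 in the Control libraries, 51.3, 53.8 and 52.1 in the HN libraries and 37.6, 42.2 and 56.8 in the PEC libraries. Of 5 podocyte markers, Synpo (0.82) was higher in HN mice (median 0.17) and 1 was higher in PEC mice against Control (median 0.20). Between PEC and HN mice 0 of 5 podocyte markers were called by edgeR, at an unadjusted p, by DESeq2 and by limma (median -0.03). Their FPKM, led by Podxl, summed to 57.1, 56.8 and 55.3 in the Control libraries, 83.9, 77.3 and 73.9 in the HN libraries and 79.9, 77.4 and 69.8 in the PEC libraries.

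The kidney tubule markers went the other way, with 4 of 5 lower in HN than in Control mice (Slc34a1 -2.28, Lrp2 -1.89 and Aqp2 -1.48, median -1.48) and 3 of 5 lower in PEC than in Control mice (median -1.0). By limma on log2(FPKM + 1), 2 were lower and 1 higher in HN mice. With PEC 3 of 5 were higher than in HN mice (Slc34a1 1.23, Slc12a3 0.80 and Lrp2 0.69, median 0.69), against 1 by limma on log2(FPKM + 1), and Lrp2 lost its call without HN replicate 8 (0.61), PEC replicate 1 (0.62) or PEC replicate 2 (0.54). Of 2 skeletal muscle markers tested, 1 (Acta1) was called higher in HN and in PEC mice against Control, where DESeq2 called both, and 0 were called between PEC and HN mice by edgeR, at an unadjusted p and by DESeq2. The list medians were 3.03, 2.80 and -0.23 at levels under 1 FPKM for each of the 5 markers.

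Grouped by role, the 3 contractile genes had medians of 1.16 for HN and 0.81 for PEC, each against Control, and -0.15 for PEC against HN. The 2 filament genes had 1.16, 1.55 and 0.39 in the same order, the 3 receptor and surface genes 1.37, 0.96 and -1.43, and the 2 matrix genes 3.23, 1.56 and -1.67. The summed FPKM of the contractile genes was 64.1, 65.3 and 66.2 in the Control libraries, 211, 185 and 187 in the HN libraries and 145, 165 and 140 in the PEC libraries. Summed matrix FPKM was 1.77, 1.78 and 2.33 in the Control libraries, 43.6, 41.8 and 44.1 in the HN libraries and 10.8, 14.8 and 12.2 in the PEC libraries. The table's KEGG terms pair 4 of the 10 genes (Myl9, Pdgfra, Pdgfrb and Fn1) with Focal adhesion and the same 4 with Regulation of actin cytoskeleton, so that these terms run across the roles.

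For 3 of the genes, the tested genes with the most similar pattern over the 9 libraries were found by the root mean square difference of centred log2 CPM (counts scaled by TMM and library total). Closest to Acta2 were Agpat4 (0.11), Def6 (0.13) and Trim46 (0.14), against a median of 0.86 over 21391 genes. Closest to Fn1 were Col3a1 (0.20), Adamts2 (0.21) and Sorcs1 (0.22), against a median of 1.76. Closest to Pdgfrb were Krt8 (0.08), Nes (0.13) and Sec14l2 (0.14), against a median of 0.83. Krt8, a keratin of epithelial cells, had a mean of 68.3 FPKM in Control mice, 220 FPKM with HN and 171 FPKM with PEC, and like Pdgfrb it had a wide spread in Control mice (SD 24.9).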

How the data were processed

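RNA of 9 kidneys, 3 for each group, was measured as poly(A) RNA-seq. The authors deposited a count for each gene and library, a whole number of reads without normalization. The authors also deposited FPKM, computed from these counts, the gene length and the library total, and FPKM was used for levels and ratios. The submitters' notes name Bowtie 0.12.2 with mm8 and mm9, whereas the table's coordinates are those of GRCm38 and equal GENCODE M21 for 51954 of 55144 genes and for 9 of the 10 genes described. Depth was 57714111 to 81069646 counts, at which mice of a group differed by much more than sampling of reads gives. Genes were tested in R 4.3.3 with edgeR 4.0.16 (TMM, filterByExpr, robust glmQLFit, glmQLFTest) in 1 fit over all 9 libraries, and called where the p adjusted by Benjamini-Hochberg was at most 0.05 and the fold change at least 1.5. Alternatives were DESeq2 1.42.0, limma 3.58.1 on log2(FPKM + 1) and log2(FPKM + 0.1) (mean FPKM 0.5 or more), other scalings (library totals alone, upper quartile, median of ratios), no filter or a mean FPKM of at least 1, other thresholds, a fit of the 2 groups compared, removal of gene length, and each mouse left out in turn. Chosen after seeing the data were the removal of GC content, limma on log2 CPM, edgeR without mitochondrial and ribosomal RNA genes, the looser CArG element, and the overlap of ratios with each mouse left out. The steps were tested on simulated counts. The 10 genes and the 20 lists (103 genes) were chosen with earlier results of these data known, and no test was made over a list. Named are the 10 genes, the up to 3 called genes of each list with the largest change and its most abundant gene over all libraries and in each group, the 3 genes most like Acta2, Fn1 and Pdgfrb, and Gapdh and Actb. Genes of the lists named for another reason (Actg2, Cnn1, Lmod1, Mylk, Itgav, Synpo2, Gli1, Myh4) were chosen after their values were seen, and Mrtfa and Mrtfb were named with the rest of their list. Python 3.11.15, numpy 2.4.6, pandas 2.3.3 and matplotlib 3.10.9 made the tables and plots.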

Additional observations from a re-analysis of the deposited data

How the results depend on the processing

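The fold changes of the 10 genes were recomputed 249 times for each comparison, over all alternatives, and kept their direction and their side of the threshold in 246 for HN and 231 for PEC, each against Control, and in 233 for PEC against HN. In HN against Control the other 3 lost a call, Myl9 at a fold change of at least 2 and after removal of GC content (0.41), and Des at a fold change of at least 2. Acta2 in PEC against HN changed sign with library totals alone (-0.14), after removal of GC content (-0.026) or gene length (-0.027) and by limma on log2(FPKM + 0.1) (-0.16) or log2(FPKM + 1) (-0.16), and ranged from -0.023 to 0.14 with each mouse left out. Pdgfra in PEC against Control changed sign with library totals alone (0.26), upper-quartile factors (0.063), removal of gene length (0.10) and limma on FPKM (0.22 and 0.19), and Postn ranged from -0.37 to 0.95 with each mouse left out. Postn in PEC against HN lost its call in a fit of the 2 groups (adjusted p = 0.0604) and without a filter (0.0617), and was not tested at a mean FPKM of at least 1. In PEC against Control, Tagln lost its call after removal of GC content (0.49) or gene length (0.50) and Pdgfrb after removal of GC content (0.52), both also at a fold change of at least 2. Myh11 in HN against Control, not called at -0.18, was 0.39 with library totals alone and 0.33 and 0.25 by limma on FPKM. With the adjusted p alone, 1 of the 10 genes was higher in PEC against HN. Genes called were 3530 of the 6066 in PEC against HN and 5026 of the 7702 in PEC against Control at a fold change of at least 2, which is stricter by construction, and 5066 in the latter by limma on log2(FPKM + 1). With each mouse left out 6062 to 7045 genes were called for HN and 7032 to 7499 for PEC against Control, and 5110 to 6207 for PEC against HN. Of the 10 genes, 10 to 10 were then higher for HN and 7 to 8 for PEC against Control, and 3 to 4 lower for PEC against HN. Of the genes called in HN against Control 54.5% were higher, against 85.7% with library totals alone, which moved the median of all genes to 0.56, 83.2% and 82.0% by limma on FPKM, and 40.9% and 41.9% after removal of gene length and GC content. For PEC against HN 46.7% were higher, against 29.6% with library totals alone (median -0.21), 28.4% and 28.6% by limma on FPKM, and 58.1% with upper-quartile factors (median 0.11). For PEC against Control 52.0% were higher, against 76.6% with library totals alone (median 0.40), 70.9% and 70.7% by limma on FPKM, 63.5% with upper-quartile factors and 39.5% after removal of GC content. Limma on log2 CPM, which carries the TMM scaling, gave 55.63% for HN and 52.66% for PEC, each against Control, and 46.35% for PEC against HN. It called the same ones of the 10 genes as edgeR in each comparison. Of 324 alternatives for the ratios, 320 moved by less than the spread between mice, and the other 4 concern Postn and Thy1 over Pdgfrb. Except where construction is named, the cause was not tested. The removal of GC content was chosen after seeing the data, as were limma on log2 CPM and edgeR without mitochondrial and ribosomal RNA genes. No paired analysis was possible because the groups share fewer than 2 replicate numbers.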

Other observations

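Of the 10 smooth muscle genes outside the set, PEC replicate 3 stood apart in Cnn1 (3.21 FPKM, at most 1.27 elsewhere) and Actg2 (3.21 FPKM, at most 1.07 elsewhere). Myh11, Tpm2 and Lmod1 were also highest in that library. Smtn, Cald1 and Synpo2 did not exceed all other libraries there. Mylk (10.8 FPKM) and Tpm1 (22.4 FPKM) were the lowest of the PEC group in PEC replicate 3, as were Acta2 and Tagln of the set. Of the reference genes, Actb had 104, 111 and 77.8 FPKM in Control, 264, 269 and 253 FPKM in HN and 262, 255 and 314 FPKM in PEC mice, and was called higher in HN mice (0.89). Gapdh had 3.50 to 5.61 FPKM in Control, 3.63 to 3.99 FPKM in HN and 49.1 to 57.7 FPKM in PEC mice. With each mouse left out, its log2 fold change ranged from 3.94 to 4.03 for PEC against HN and from -0.92 to -0.53 for HN against Control. Whether the high values in PEC mice come from the treatment or from how these libraries were made cannot be told apart. As Gapdh has many near-identical copies in the mouse genome and the counting program is not given in the sources used here, its values may not be those of Gapdh alone.

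The counts come from whole kidney, so that no value belongs to 1 cell type, and 3 mice in each group allow no exact p under 0.1. Protein, histology and other doses were not analysed here.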
